A study of Mus musculus with 15 samples.

Results

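The inflammatory gene set described here holds 53 genes: receptors for cytokines, chemokines and other inflammatory mediators, their ligands, the NF-kB subunits and inhibitors that act downstream, and genes that this signalling induces. The members are a list of gene symbols, and 49 of the 53 were measured among 19938 genes. Il1r1, F2rl1, Ednra and Nfkb1 were not analysed here. RNA was taken from large sensory neurons (soma over 26.9 µm) of the mouse dorsal root ganglia at lumbar levels 2 to 5 and was measured on 15 Affymetrix arrays, in 5 groups of 3 biological replicates. All mice were C57BL/6 and carried a GFP (green fluorescent protein) reporter driven by the CGRP promoter. CGRP, calcitonin gene-related peptide, is made by many neurons that sense pain. The neurons were sorted by that reporter and by a retrograde tracer, injected 5 days before death. The saline paw and CFA paw groups held CGRP-positive neurons projecting to skin, from mice given saline or CFA (complete Freund's adjuvant, an oil emulsion of killed mycobacteria that causes lasting inflammation) in the paw. The saline muscle, acid muscle and CFA muscle groups held CGRP-negative neurons projecting to muscle, from mice given saline, acid or CFA in the muscle. The saline groups served as controls. The labels used here give no sex or age of the mice, no dose or time of the injection and no number of mice per sample. Skin and muscle groups thus differed in target tissue, CGRP status, tracer site and injection site at once, and these cannot be told apart.

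Inflamed tissue releases cytokines such as interleukin 1 and tumour necrosis factor, chemokines, bradykinin, histamine, proteases and endothelin. Sensory neurons carry receptors for many of these, and their activation lowers the threshold at which the neurons fire. Interleukin 1, tumour necrosis factor and Toll-like receptors act through NF-kB, a family of transcription factors held in the cytoplasm by inhibitors such as the product of Nfkbia. NF-kB in turn induces its own inhibitors, chemokines and adhesion molecules, so that the transcripts of these targets are commonly read as a trace of the signal.

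The values are log2 expression, and a difference of 1 between groups is a doubling. As the strength of a signal also depends on the probes, levels of different genes are not compared with each other. A gene is called dim in a group where its mean lay under 2.44, the 95th percentile of the means of 1194 olfactory and vomeronasal receptor genes, which sensory neurons are not known to use. Sensory neuron markers were above that limit in all groups (13 of 13 measured), with list means of 6.96 to 9.03 per array, as were satellite glia and Schwann cell markers (10 of 10, 5.73 to 6.64). Of 15 macrophage markers, 3 were above the limit in saline paw, 3 in CFA paw, 6 in saline muscle, 5 in acid muscle and 7 in CFA muscle, and the list means lay between 2.06 and 2.48 on all arrays. Aif1, Adgre1, Mrc1, Cd163, Tyrobp, Fcgr3, Itgam and Lyz2 were dim in all 5 groups. Saline paw replicate 1 stood apart from the other skin arrays. Its SD over all genes was 1.42, against 1.66 to 1.80 on the 5 other skin arrays and 1.28 to 1.55 on the muscle arrays, and its sensory neuron marker mean was 7.95, against 8.80 to 9.03 on those 5. Results that rest on this array are given with and without it.

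**Figure D1:**
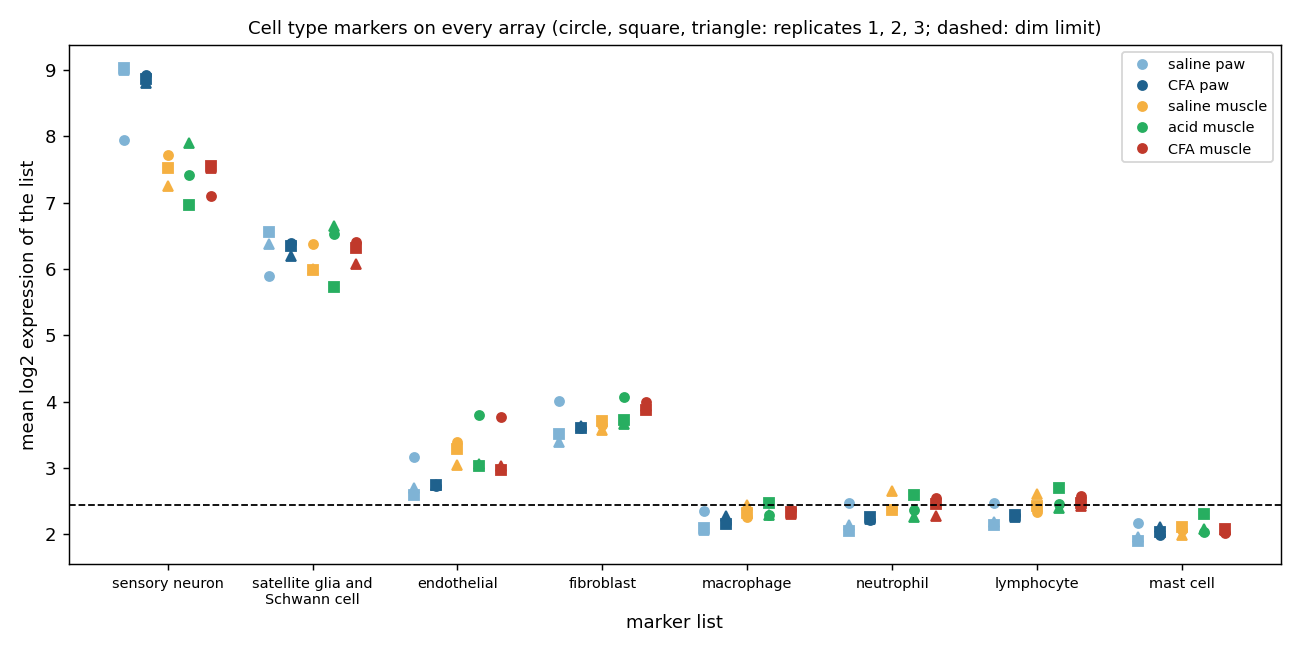
Mean log2 expression of 8 cell type marker lists on each of the 15 arrays (vertical axis), by group (colour) and replicate (circle, square and triangle for replicates 1, 2 and 3), with the dim limit of 2.44 as a dashed line. Macrophage markers lie at 2.06 to 2.48, near the limit, while the sensory neuron list lies at 8.80 to 9.03 on 5 of the 6 skin arrays, at 7.95 in saline paw replicate 1 and at 6.96 to 7.90 on the muscle arrays.

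The promoters of 5 members are printed because they include 3 textbook NF-kB targets above the dim limit in all groups and the receptor and cytokine with the smallest p-values over the 5 groups. Each is the 250 bases before the RefSeq start on GRCm38.p6, 5′ to 3′ on the gene's strand, with matches to the NF-kB consensus in capitals, both strands searched. Nfkbia, which encodes the NF-kB inhibitor IkB alpha, lies at chr12:55492648-55492897 on the minus strand, and its match begins 29 bases before the start. Cxcl1, a neutrophil-attracting chemokine, lies at chr5:90890995-90891244 on the plus strand, with overlapping matches that begin 71 and 70 bases before the start. Tnfaip3, which encodes the NF-kB inhibitor A20, lies at chr10:19015411-19015660 on the minus strand, with matches that begin 125 and 12 bases before the start. Tnfrsf1a, tumour necrosis factor receptor 1, lies at chr6:125349473-125349722 on the plus strand and Il1b, interleukin 1 beta, at chr2:129371140-129371389 on the minus strand, and neither window holds a match.
Nfkbia: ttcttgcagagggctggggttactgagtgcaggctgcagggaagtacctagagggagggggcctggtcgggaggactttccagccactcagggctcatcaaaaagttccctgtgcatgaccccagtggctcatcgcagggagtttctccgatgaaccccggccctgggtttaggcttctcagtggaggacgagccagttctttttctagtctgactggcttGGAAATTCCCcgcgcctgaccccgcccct
Cxcl1: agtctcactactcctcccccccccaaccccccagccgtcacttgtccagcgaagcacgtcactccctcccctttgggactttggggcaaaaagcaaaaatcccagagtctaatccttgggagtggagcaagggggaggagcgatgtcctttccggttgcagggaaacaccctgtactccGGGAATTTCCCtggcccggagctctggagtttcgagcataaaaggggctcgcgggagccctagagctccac
Tnfaip3: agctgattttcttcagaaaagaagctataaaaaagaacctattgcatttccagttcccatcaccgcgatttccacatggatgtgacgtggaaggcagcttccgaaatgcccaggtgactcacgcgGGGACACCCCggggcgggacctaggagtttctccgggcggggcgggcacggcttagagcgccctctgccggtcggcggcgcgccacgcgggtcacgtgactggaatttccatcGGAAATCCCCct
Tnfrsf1a: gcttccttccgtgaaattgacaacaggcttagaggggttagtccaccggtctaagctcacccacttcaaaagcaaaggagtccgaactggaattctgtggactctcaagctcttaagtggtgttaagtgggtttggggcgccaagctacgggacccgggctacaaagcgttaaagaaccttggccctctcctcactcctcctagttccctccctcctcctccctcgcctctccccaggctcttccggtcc
Il1b: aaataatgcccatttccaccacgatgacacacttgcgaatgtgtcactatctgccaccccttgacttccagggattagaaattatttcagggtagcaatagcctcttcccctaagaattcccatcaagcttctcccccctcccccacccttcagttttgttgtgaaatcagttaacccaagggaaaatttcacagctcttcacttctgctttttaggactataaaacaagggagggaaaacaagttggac

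Of the 49 measured members, 23 (46.9%) lay above the dim limit in all 5 groups and 15 (30.6%) were dim in all 5, against 62.2% and 27.9% of all genes. The remaining 11 were dim in some groups only. In bulk samples such as these, fewer cells of a type and less RNA per cell cannot be told apart.

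**Figure D2:**
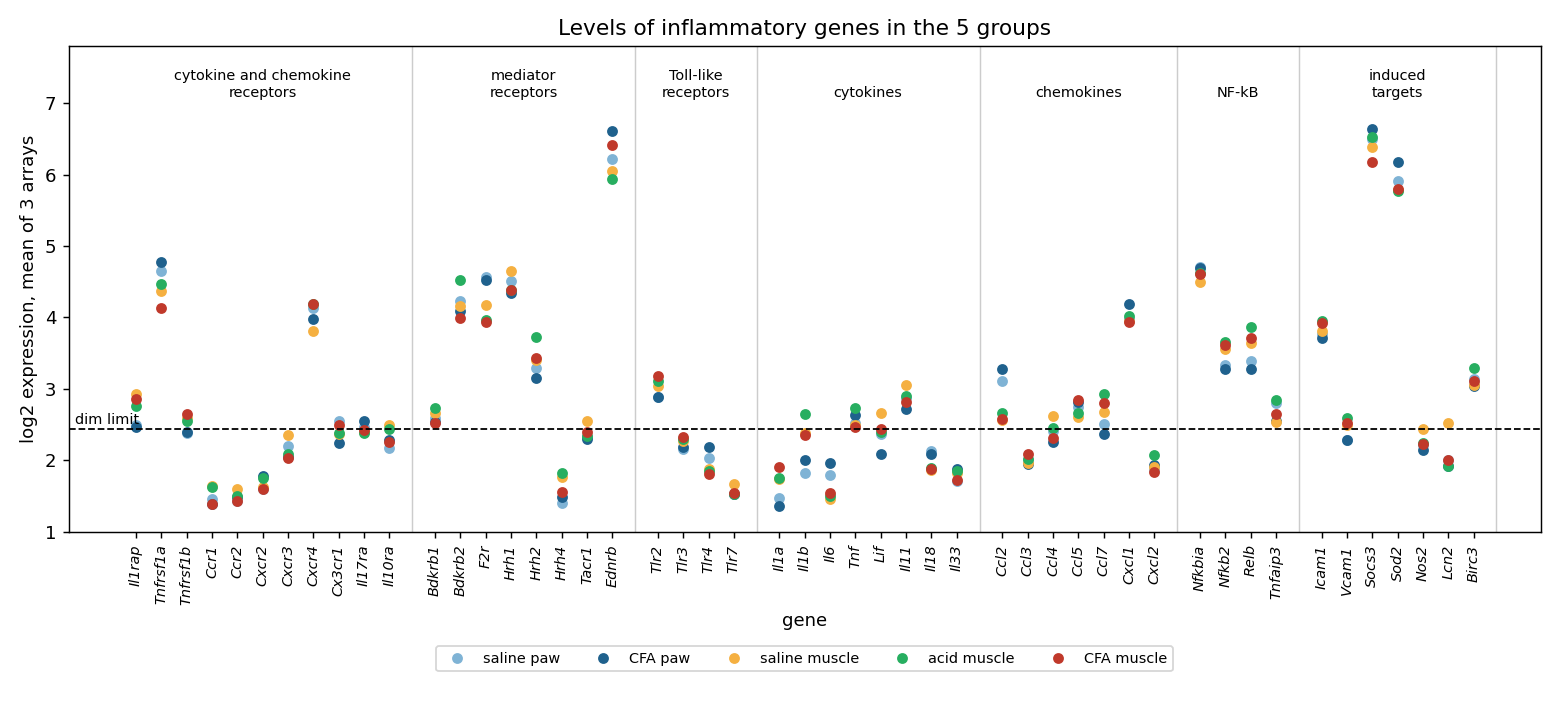
Mean log2 expression over 3 arrays (vertical axis) of the 49 measured genes, ordered by role, in the 5 groups (colours), with the dim limit as a dashed line. In most genes the 5 group means lie close together, and the receptors Ccr1, Ccr2, Cxcr2, Cxcr3 and Hrh4 lie below the limit in every group.

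Among the receptors for cytokines and chemokines, 3 of 11 measured were above the limit in all groups: Tnfrsf1a, Cxcr4 (the receptor for CXCL12) and Il1rap (the accessory chain of the interleukin 1 and interleukin 33 receptors). The leukocyte chemokine receptors Ccr1, Ccr2, Cxcr2 and Cxcr3 were dim in all 5 groups, with group means from 1.39 for Ccr1 in CFA paw to 2.36 for Cxcr3 in saline muscle. Cx3cr1, the fractalkine receptor of macrophages and microglia, had group means of 2.24 to 2.55, and Il17ra, a chain of the interleukin 17 receptor, of 2.39 to 2.55, both around the limit.

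Receptors for other mediators were better measured, with 6 of 8 above the limit in all groups. Ednrb, the endothelin B receptor, known in sensory ganglia mainly from satellite glia, had group means of 5.94 ± 0.61 in acid muscle to 6.62 ± 0.07 in CFA paw (SD, n = 3 each). F2r, the thrombin receptor PAR1, ranged from 3.94 ± 0.19 in CFA muscle to 4.56 ± 0.31 in saline paw. Bdkrb2, the constitutive bradykinin receptor, ranged from 3.99 ± 0.39 in CFA muscle to 4.52 ± 0.27 in acid muscle. Bdkrb1, the bradykinin receptor that inflammation induces in many tissues, had group means of 2.52 to 2.74, just above the limit. The histamine receptors Hrh1 (4.34 to 4.65) and Hrh2 (3.15 to 3.72) were above the limit in all groups and Hrh4 (1.40 to 1.82) was dim in all. Tacr1, the substance P receptor, was dim in 4 of the 5 groups. Of the Toll-like receptors, which sense microbial products, Tlr2 was above the limit in all groups (2.88 to 3.18), whereas Tlr3, Tlr4 and Tlr7 were dim in all.

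Most ligands were dim or near the limit. Of the 8 cytokines, Il1a, Il6, Il18 and Il33 were dim in all 5 groups, Il1b and Lif, a cytokine of the interleukin 6 family, in 4, and Tnf (2.47 to 2.73) and Il11 (2.72 to 3.05) were above the limit in all. Of the 7 chemokines, Ccl2, which attracts monocytes, had group means of 2.57 to 3.27, Ccl5 of 2.61 to 2.85 and Cxcl1 of 3.93 to 4.19, and Ccl3 and Cxcl2 were dim in all groups.

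All 4 measured NF-kB genes were above the limit in every group, with group means of 4.50 to 4.71 for Nfkbia, 3.28 to 3.66 for the p100 precursor gene Nfkb2, 3.27 to 3.86 for its partner subunit Relb and 2.53 to 2.85 for Tnfaip3. Among 7 induced targets, Socs3, a feedback inhibitor of cytokine receptors that signal through JAK kinases, had group means of 6.17 to 6.64 and Sod2, mitochondrial superoxide dismutase, of 5.78 to 6.17. Icam1 (3.71 to 3.95), an adhesion molecule, and Birc3 (3.04 to 3.29), an inhibitor of apoptosis, were also above the limit in all groups. Nos2, the inducible nitric oxide synthase, was dim in all and Lcn2, which encodes lipocalin 2, in 4. Socs3 is the member with more than 1 probe set. Its other probe set had group means of 3.28 to 3.46 and did not follow the main one across the 15 arrays (Pearson r = −0.16, over values that include the group differences).

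CFA in the paw was compared with saline to ask how skin inflammation acts on these genes in large skin neurons, and 0 of 49 members changed by limma's adjusted p, with or without saline paw replicate 1 (0% of all genes in both). An unadjusted p under 0.05 was seen for 0 of 49 members and 1.21% of all genes. Nfkbia read 4.86, 4.63 and 4.63 in saline paw and 4.75, 4.70 and 4.63 in CFA paw. Each 4.63 here is the same deposited value, which recurs on 5 of the 15 arrays. Cxcl1 read 4.22, 4.06 and 3.67 after saline and 4.04, 4.23 and 4.29 after CFA. Tnfaip3 read 3.03, 2.83 and 2.55 after saline and 2.51, 2.61 and 2.53 after CFA. The groups overlapped for all 3 of these NF-kB targets, and for every other measured member, while 4.71% of all genes had groups that did not overlap.

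Tnfaip3 had the smallest p of the members, with a difference of −0.25 (SE 0.148), which was −0.14 without saline paw replicate 1. The 3 next were Cx3cr1 (−0.31, SE 0.184), Lif (−0.27, SE 0.169) and Cxcr2, a receptor for CXCL1 and CXCL2 (0.18, SE 0.129), which without that array were −0.15, −0.16 and 0.19. Cxcr2 differed by 0.055 without CFA paw replicate 2. The limma adjusted p = 1.00 for all 4. The differences were positive in 22 of 49 members with all arrays and in 34 without saline paw replicate 1, with medians of −0.03 and 0.07 (all genes −0.01 in both). Over all genes they were positive in 9383 and 9587 of 19938. Over genes dim in all 5 groups they were positive in 2351 and 3488 of 5561, so dim genes also moved up without that array. Of the 4 NF-kB genes, 0 had a positive difference with all arrays (median −0.08) and 3 without saline paw replicate 1. In the 15 members dim in all 5 groups a change in RNA can leave the values unmoved. The 95% interval lay within 1 log2 unit either way for 48 of 49 members, those 15 included (94.9% of all genes). The exception was Ednrb, which read 5.66, 6.63 and 6.37 in saline paw and 6.54, 6.67 and 6.64 in CFA paw, a difference of 0.40 (−0.26 to 1.05) with saline paw replicate 1 as the low array, and of 0.12 without it.

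CFA in the muscle, compared with saline, also changed 0 of 49 members by the adjusted test (0% of all genes), and 1 member had an unadjusted p under 0.05 in limma (2.60% of all genes). That member, Ccr1, a receptor for CCL3 and CCL5, read 1.67, 1.57 and 1.68 after saline and 1.40, 1.34 and 1.44 after CFA, a difference of −0.25 (SE 0.112), all of it below the dim limit. Lcn2 read 2.10, 2.32 and 3.16 after saline and 2.57, 1.73 and 1.69 after CFA, a difference of −0.53 (SE 0.260) that was −0.21 without the high saline muscle replicate 3. Cxcr4 read 4.07, 3.57 and 3.79 after saline and 4.23, 4.20 and 4.14 after CFA, a difference of 0.38 (SE 0.200), with the CFA arrays above all saline arrays. Ccl4, a chemokine near the limit, differed by −0.30 (SE 0.161). The limma adjusted p = 1.00 for each of the 4.

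Groups did not overlap for 5 members (7.73% of all genes): Cxcr4 lay higher on all CFA muscle arrays (3.63% of all genes), and Ccr1, Il10ra, Hrh4 and Il11 lay lower (4.1%). All 4 NF-kB genes had positive differences (median 0.09) that did not pass the test. The 95% interval lay within 1 log2 unit for 47 of 49 members, the 15 dim in all groups included (95.2% of all genes). The exceptions were Lcn2 and Ednrb (0.36, upper bound 1.02). Fibroblast markers had positive differences in 6 of 6 genes (median 0.23), and their part in these values was not tested.

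Acid in the muscle is a model of muscle pain with little tissue damage, and here too 0 of 49 members changed against saline by the adjusted test (0% of all genes), with 2 at an unadjusted p under 0.05 in limma (2.85% of all genes). Lcn2 had the smallest p, at 1.79, 1.99 and 1.99 after acid, a difference of −0.60 (SE 0.260) that was −0.29 without saline muscle replicate 3. Tnfaip3 read 2.65, 2.29 and 2.65 after saline and 2.88, 3.00 and 2.66 after acid, a difference of 0.32 (SE 0.148), and the groups did not overlap, by a margin smaller than the spread in either. Hrh2, the receptor behind histamine's effect on gastric acid, read 3.43, 3.44 and 3.33 after saline and 3.68, 3.79 and 3.70 after acid, a difference of 0.33 (SE 0.167). Without saline paw replicate 1, which enters the spread estimate, the SE was 0.109 (limma unadjusted p = 0.00964, against 0.0719 with all arrays). The limma adjusted p without that array was 0.956.

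Cxcr4, at 3.76, 4.16 and 4.62 after acid, differed by 0.37 (SE 0.200), with overlapping groups, and by 0.15 without acid muscle replicate 3. With all arrays the limma adjusted p = 1.00 for all 4 of these genes. Groups did not overlap for 5 members (6.92% of all genes), with Cxcr2, Bdkrb2, Hrh2 and Tnfaip3 higher (3.98% of all genes) and Lcn2 lower after acid (2.94%). Differences were positive in 30 of 49 members (median 0.05) and in 10701 of all 19938 genes (median 0.02). They were positive in 4 of 4 NF-kB genes (median 0.17). CFA muscle and acid muscle share the saline muscle arrays, so their differences for Lcn2 and Cxcr4 are not independent of each other.

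CFA muscle set against acid muscle gave 0 members by the adjusted test (0% of all genes) and 1 at an unadjusted p under 0.05 in limma (3.14% of all genes). Tnfrsf1a read 4.22, 4.26 and 3.93 after CFA and 4.41, 4.52 and 4.48 after acid, a difference of −0.33 (SE 0.146). Ccr1 differed by −0.23, Bdkrb2 by −0.53 (SE 0.280; −0.31 without CFA muscle replicate 3) and Socs3 by −0.36 (SE 0.191), and the limma adjusted p = 1.00 for all 4. Groups did not overlap for 6 members (8.15% of all genes), all lower after CFA: Tnfrsf1a, Ccr1, Cxcr2, Bdkrb1, Hrh2 and Socs3. Groups that do not overlap in this direction made up 5.23% of all genes. Ccr1 and Cxcr2 were dim in all 5 groups. The other probe set of Socs3 did not go the same way, with means of 3.36 after CFA and 3.28 after acid.

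Whether CFA acted differently in the muscle and the skin neurons was tested as the difference of the 2 CFA effects. That test called 0 of 49 members (0% of all genes), and 0 had an unadjusted p under 0.05 in limma (1.63% of all genes). The members with the smallest p were Cxcr4 (0.54, SE 0.282), Tnfaip3 (0.37), Tnfrsf1a (−0.37, SE 0.206) and Cx3cr1 (0.43), each as the muscle effect minus the skin effect and each with a limma adjusted p of 1.00. Without saline paw replicate 1 these values were 0.64, 0.26, −0.35 and 0.27.

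**Figure D3:**
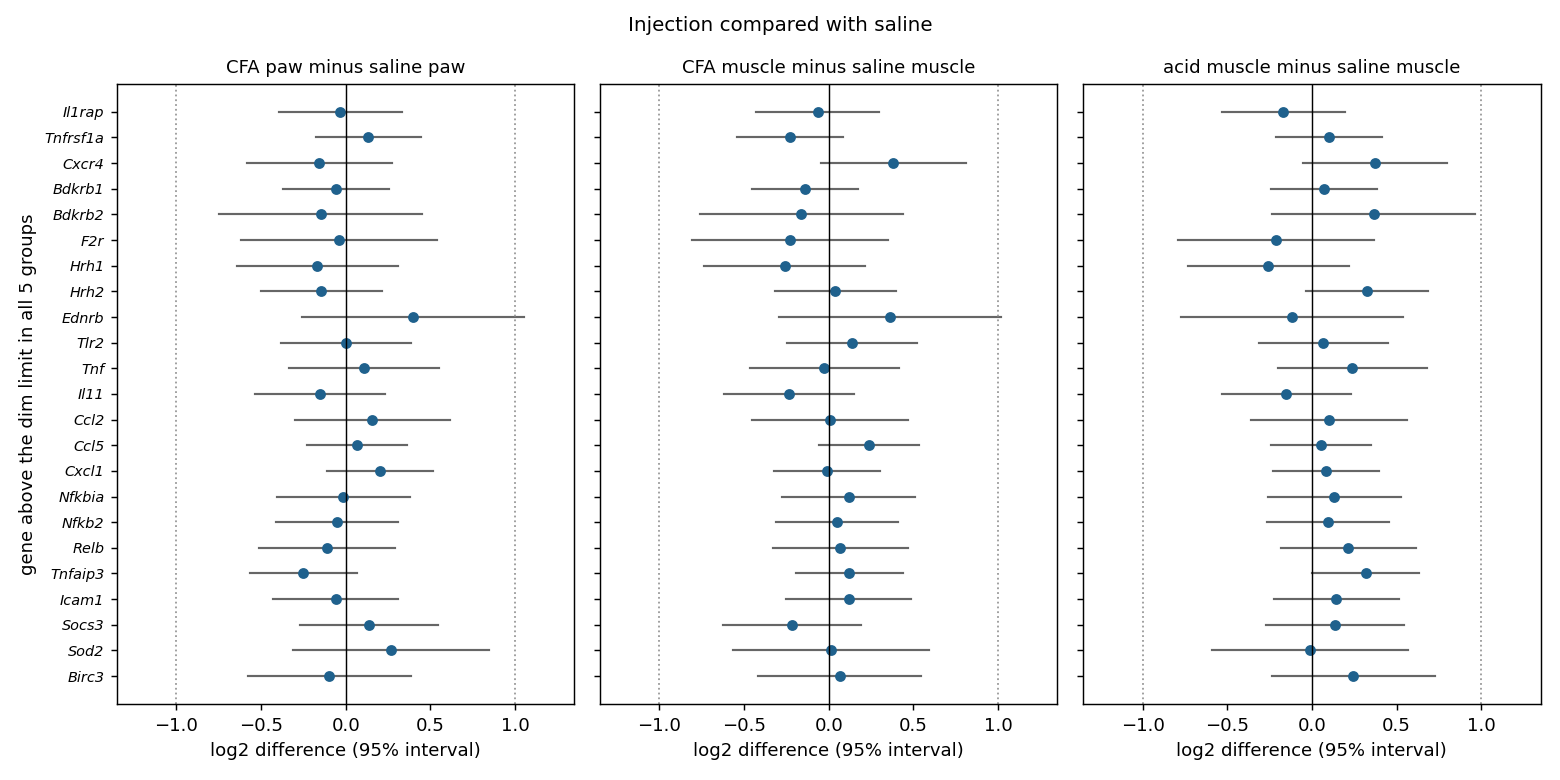
Log2 difference from saline (points) with its 95% interval (lines) for the 23 genes above the dim limit in all 5 groups, in CFA paw, CFA muscle and acid muscle, with dotted lines at a doubling and a halving. Every interval includes 0 except that of Tnfaip3 after acid, which starts just above it, and only Ednrb after CFA reaches past a dotted line.

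The NF-kB consensus lay in the 250 bases before the start of 12 of the 36 measured members with a promoter sequence (33.3%), against 8.23% of 27025 genes with one. A match is a description of the sequence and not a bound site. The list was chosen to include genes that NF-kB signalling induces, so this share is no result of the expression values. The 12 are Ccr1, Cxcl1, Cxcl2, Ednrb, Il6, Lif, Nfkb2, Nfkbia, Sod2, Tlr2, Tlr3 and Tnfaip3. Their median difference from saline was 0.01 after CFA in the paw, 0.05 after CFA in the muscle and 0.06 after acid. The median over the 24 measured members without the consensus was −0.05, −0.05 and 0.04. Both sets held dim members, in which a change in RNA can leave the values unmoved. With the consensus, Ccr1, Cxcl2, Il6 and Tlr3 were dim in all 5 groups and Lif in 4. Without it, Ccl3, Ccr2, Cxcr2, Cxcr3, Il18, Il1a and Il33 were dim in all 5 and Il1b, Lcn2 and Tacr1 in 4.

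Skin and muscle neurons were compared to ask how these genes differ between the 2 kinds of large neuron. Over the 5 groups, 0 of 49 members passed the F test of limma after adjustment (5.76% of all genes), and 5 had an unadjusted p under 0.05 (18.5% of all genes). Without saline paw replicate 1, the F test called 4 members, Tnfrsf1a, Hrh2, Il1b and Ccl2 (19.5% of all genes).

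**Figure D4:**
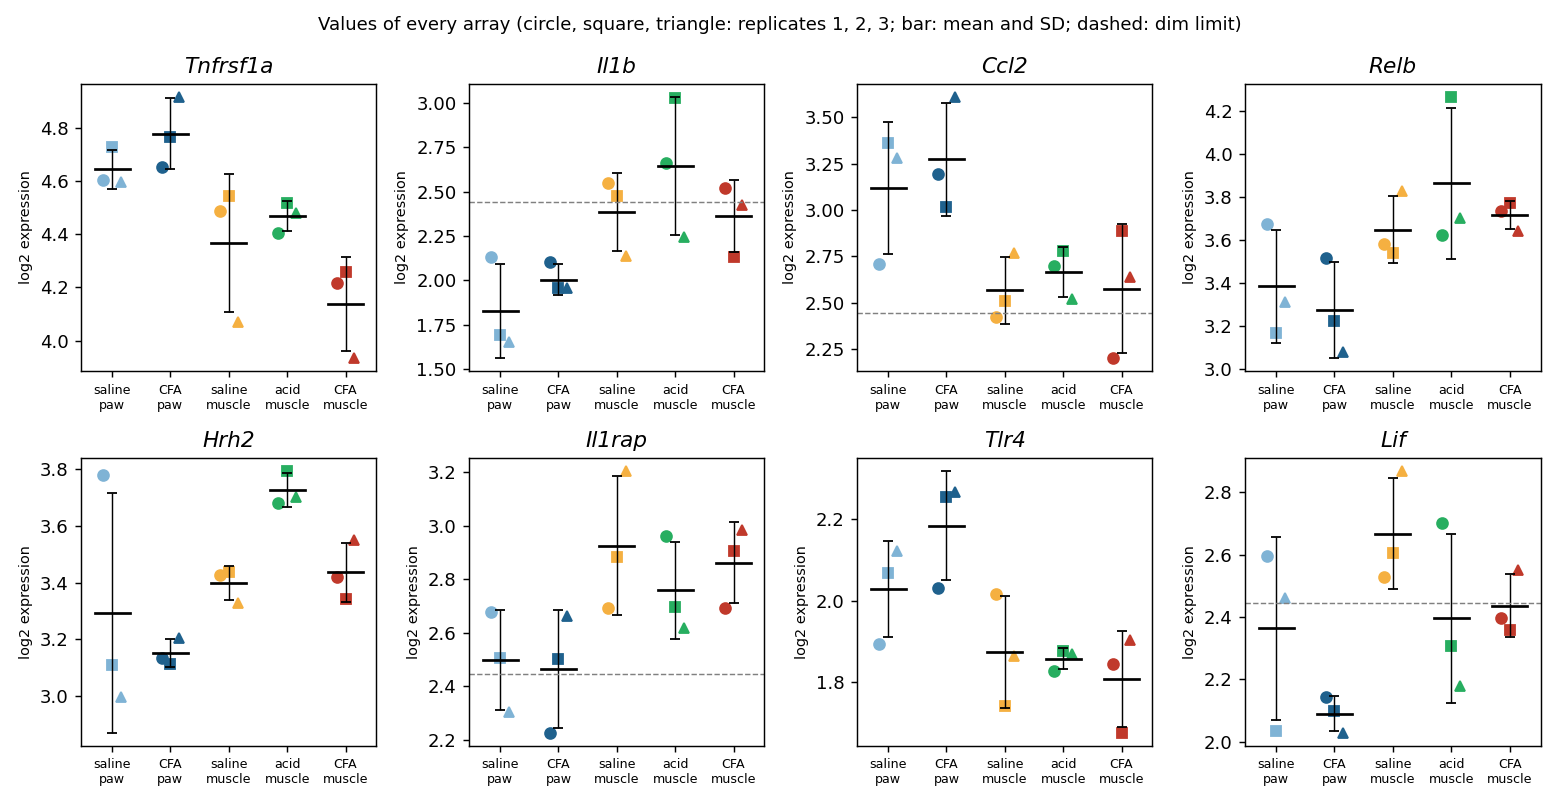
Log2 expression on every array (points, by replicate) with the mean and SD of 3 arrays (bars) in the 5 groups, for the 8 genes with the smallest p in the F test; the dashed line is the dim limit. Tnfrsf1a lies higher on all 6 skin arrays (4.60 to 4.92) than on all 9 muscle arrays (3.93 to 4.54), and Il1b and Tlr4 lie mostly below the limit.

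Tnfrsf1a, the main receptor through which tumour necrosis factor activates NF-kB, lay higher on skin than on muscle arrays in the deposited values. It read 4.61, 4.73 and 4.60 in saline paw and 4.65, 4.77 and 4.92 in CFA paw. It read 4.49, 4.54 and 4.07 in saline muscle, 4.41, 4.52 and 4.48 in acid muscle and 4.22, 4.26 and 3.93 in CFA muscle. The lowest skin array (4.60) thus lay above the highest muscle array (4.54). This was so for 2.44% of all genes and for no other member (2.04% of members).

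Between CFA paw and CFA muscle the difference in Tnfrsf1a was 0.64 (SE 0.146, 95% interval 0.33 to 0.96), a 1.56-fold higher level in skin neurons (limma adjusted p = 0.0172), and with all arrays it was the 1 member of 49 called in this comparison (6.41% of all genes). Saline paw replicate 1 enters the estimate of the spread, and without it 3 members were called (13% of all genes): Tnfrsf1a (adjusted p = 0.00912 in limma), Ccl2 (0.0223) and Socs3 (0.0414). Leaving out CFA paw replicate 2 (adjusted p = 0.0616), CFA paw replicate 3 (0.0778) or CFA muscle replicate 3 (0.0756) ended the call. The call also ended after quantile normalization (0.42, adjusted p = 0.206), after cyclic loess (0.45, 0.118) and with the SD of an array's values over all genes in the model (0.58, 0.132), and the difference stayed positive in each. Between saline paw and saline muscle the difference was 0.28 (SE 0.146, limma adjusted p = 0.358), and these groups did not overlap.

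With all arrays, no other member passed between CFA paw and CFA muscle. Ccl2 read 3.19, 3.02 and 3.61 in CFA paw and 2.20, 2.89 and 2.64 in CFA muscle, a difference of 0.70 (SE 0.215, limma adjusted p = 0.0692). Tlr4, the receptor for bacterial lipopolysaccharide, differed by 0.38 (SE 0.126, adjusted p = 0.0928), from levels below the dim limit in both. Socs3 differed by 0.47 (SE 0.191, limma adjusted p = 0.176) in the deposited values and by −0.25 after quantile normalization and after cyclic loess, so its direction depends on the scaling. The other probe set of Socs3 had means of 3.33 in CFA paw and 3.36 in CFA muscle. In all, 9 members had an unadjusted p under 0.05 (20.8% of all genes), and groups did not overlap for 13 (36.0% of all genes), 4 higher (18.9%) and 9 lower (17.1%) in skin.

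Between the saline groups, 0 of 49 members passed (2.04% of all genes), and 4 had an unadjusted p under 0.05 in limma (16.9% of all genes). Il1b read 2.13, 1.69 and 1.65 in saline paw and 2.55, 2.48 and 2.14 in saline muscle, a difference of −0.56 (SE 0.198, adjusted p = 0.167). Ccl2 read 2.71, 3.36 and 3.28 in saline paw and 2.42, 2.51 and 2.77 in saline muscle, a difference of 0.55 (SE 0.215, adjusted p = 0.209). In both genes saline paw replicate 1 was the skin array nearest to the muscle arrays.

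Il1rap, at 2.68, 2.51 and 2.30 in saline paw and 2.69, 2.88 and 3.21 in saline muscle, differed by −0.43 (SE 0.170, limma adjusted p = 0.212), and Hrh4, dim in both, by −0.37 (SE 0.162, 0.260). Without saline paw replicate 1, Il1b (−0.71, adjusted p = 0.0251) and Ccl2 (0.75, 0.0217) passed, as did Il11, which was lower, and 19.2% of all genes passed. With all arrays, groups did not overlap for 9 members (15.2% of all genes). The members' median difference was −0.10, beside −0.02 over all genes and −0.12 over the olfactory and vomeronasal receptor genes. Without saline paw replicate 1 these medians were −0.18, −0.06 and −0.16.

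The saline and CFA comparisons share no array, and 36 of 49 members (73.5%) had the same sign in both, as had 76.8% of all genes. Without saline paw replicate 1 this held for 34 members (69.4%) and for 81.2% of all genes. Across the members the 2 sets of differences had a Pearson r of 0.68 and a Spearman rho of 0.64. Over all genes these were 0.84 and 0.71. The correlations are a description, since genes on one array share its spread. The mean of both differences was also tested, a comparison chosen after the data were seen. It called 4 of 49 members (14.7% of all genes), 2 higher (11.6%) and 2 lower (3.12%) in skin. An unadjusted p under 0.05 was seen for 11 members (30.3% of all genes).

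Tnfrsf1a was higher in skin neurons by 0.46 (SE 0.103, 1.38-fold, limma adjusted p = 0.00850) and Ccl2 by 0.62 (SE 0.152, 1.54-fold, limma adjusted p = 0.0133). Il1rap was lower by this test (−0.41, SE 0.120, limma adjusted p = 0.0325), as was Il1b (−0.46, SE 0.140, limma adjusted p = 0.0415). Without saline paw replicate 1 the differences were 0.47, 0.73, −0.46 and −0.53, and 17 of 49 members passed (32.6% of all genes). Ccl2 kept its call after quantile normalization (adjusted p = 0.0130) and cyclic loess (0.00960), whereas Tnfrsf1a (0.206 and 0.147), Il1rap (0.0998 and 0.0897) and Il1b (0.112 and 0.0809) lost theirs. Under both of these scalings 3 members were called, Tlr4, Il6 and Ccl2, all higher in skin. Of all genes, 8.49% were called after quantile normalization and 11.3% after cyclic loess. Tlr4 and Il6 were dim in all 5 groups.

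With array SD added to the model, 0 members were called, and the differences were 0.41 for Tnfrsf1a, 0.45 for Ccl2, −0.23 for Il1rap and −0.13 for Il1b. The wider array SD went with skin origin on every skin array but saline paw replicate 1, and its part in the differences was not tested further. The cell type marker lists had skin minus muscle differences as well. Sensory neuron markers had a median difference of 1.19 between the saline groups and 1.61 between the CFA groups, with 13 of 13 genes higher in skin in both, and those of satellite glia and Schwann cells of 0.19 and 0.18. The medians were −0.35 and −0.51 for endothelial, −0.12 and −0.43 for fibroblast and −0.23 and −0.13 for neutrophil markers. They were −0.21 and −0.15 for lymphocyte, −0.21 and −0.17 for macrophage and −0.087 and −0.0082 for mast cell markers. Without saline paw replicate 1 the saline medians were 1.66 for sensory neuron, 0.48 for satellite glia and Schwann cell and −0.55 for endothelial markers. Without that array they were −0.35 for fibroblast, −0.37 for neutrophil, −0.20 for lymphocyte, −0.21 for macrophage and −0.19 for mast cell markers. Il1b, a product of activated macrophages, differed in the direction of the macrophage list and Ccl2 against it. Il1b was dim in 4 of the 5 groups, and Ccl2 was above the limit in all. Genes dim in all 5 groups had medians of −0.11 after saline and −0.11 after CFA. Genes above the limit in all 5 had medians of 0.12 and 0.08, with positive differences in 7790 and 7184 of 12402. Without saline paw replicate 1 the medians after saline were −0.17 for the dim genes and 0.17 for those above the limit. The part of signal level in the Il1b and Ccl2 differences was not tested. The part of other cell types in these differences was not tested.

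**Figure D5:**
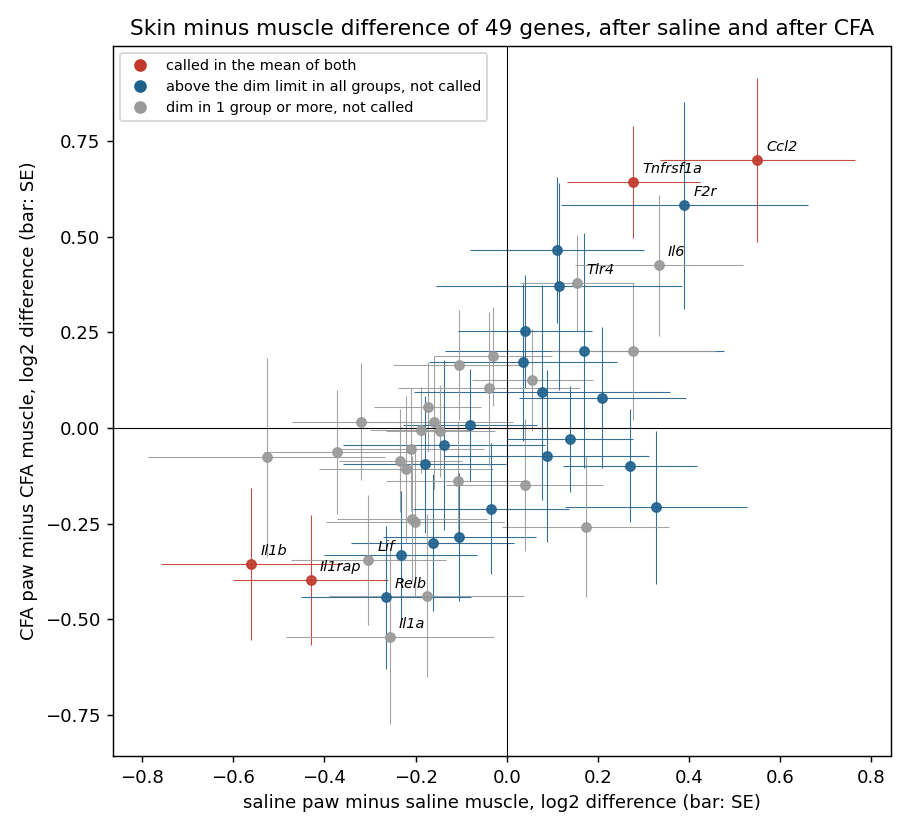
Skin minus muscle log2 difference of the 49 genes after saline (horizontal axis) and after CFA (vertical axis), with SE bars; red points passed the test of the mean of both. Tnfrsf1a and Ccl2 lie in the upper right and Il1b and Il1rap in the lower left, and 36 of the 49 genes have the same sign on both axes.

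A list of 75 other inflammatory pathway genes, of which 67 were measured, gave the same count after injection. Against saline, 0 changed in CFA paw, in CFA muscle or in acid muscle (0% of all genes in each). At an unadjusted p under 0.05 in limma these comparisons held 2, 1 and 2 of the 67 (1.21%, 2.60% and 2.85% of all genes). Between skin and muscle neurons 0 passed after saline (2.04% of all genes), with 7 at an unadjusted p under 0.05 in limma (16.9% of all genes). After CFA 1 passed (6.41% of all genes). It was Ackr1, the atypical chemokine receptor that binds CCL2 and other chemokines without signalling through G proteins. Ackr1 read 6.68, 6.64 and 6.51 in CFA paw and 3.99, 4.94 and 5.53 in CFA muscle, a difference of 1.79 (SE 0.375, 3.45-fold, limma adjusted p = 0.0114). In the mean of the saline and CFA differences 8 of the 67 were higher in skin neurons (11.6% of all genes) and 0 lower (3.12% of all genes), with Ackr1 (1.39), Nfkbib, which encodes the inhibitor IkB beta (0.75), and the interferon-induced chemokine Cxcl10 (1.32) at limma adjusted p = 0.00310, 0.00648 and 0.0127. Without saline paw replicate 1, 8 of the 67 were higher (14.1% of all genes) and 0 lower (5.1%) after saline. Without that array 9 were higher (10.6%) and 1 lower (2.42%) after CFA, and 13 higher (20%) and 3 lower (12.6%) in the mean.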

How the data were processed

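RNA from 15 sorted samples (50 ng each) was hybridised to Affymetrix whole-transcript arrays. The authors deposited 1 log2 value per probe set and array, already normalized. RMA and Partek are named, without a version, per the submitters' processing notes. The log base was taken from the range of the values (0.397 to 13.8). Values were used as deposited, with 0 other value columns.

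Of 35556 probe sets, 21789 had 1 gene symbol in the platform annotation, 1621 had several and 12146 were unnamed. Through the gene identifier 21698 matched the RefSeq gene table, with 0 symbols updated. Where a gene had several probe sets (999 genes), the one with the highest mean was used, which left 19938 genes, dim ones included. Groups were taken from the titles. One limma fit (limma 3.58.1, R 4.3.3) of 5 group means over 15 arrays, with empirical Bayes variances (10 residual degrees of freedom), gave each contrast, tested two-sided, with Benjamini-Hochberg adjustment over all genes at 0.05. In each comparison, members past the threshold were named, or else the 4 with the smallest p, and the 8 with the smallest F test p are shown by array; other members were chosen for their role. The members and gene lists were chosen with earlier results of these data known. The fit was tested on simulated data.

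The deviations of same-numbered arrays of different groups had correlations of −0.53 to 0.34 (median −0.045, 30 pairs). Those of differently numbered arrays had correlations of −0.49 to 0.57 (median 0.070, 60 pairs). The labels do not say what the numbers mark, and with deviations from means of 3 arrays a shared batch is not excluded. Alternatives were median centring, quantile and cyclic loess normalization, removal of dim genes, array weights, a trended robust prior, the mean of a gene's probe sets, a replicate block, the array SD as a covariate, only the arrays compared, and leaving out each array. RefSeq promoters (GRCm38.p6) were found for 38 of 53 members. The number of arrays limits the precision.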

Additional observations from a re-analysis of the deposited data

How the results depend on the processing

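Counts of members past the threshold were 0 in CFA paw, CFA muscle and acid muscle against saline, in CFA muscle against acid muscle and in the difference of the CFA effects, under every alternative and without each array of the groups compared. Array weights gave saline paw replicate 1 the lowest weight (0.148). With them 11 members were called between the saline groups (37% of all genes) and 6 between the CFA groups (20.3%). In the mean skin to muscle difference 18 were called (45.8% of all genes), and in the F test 15 (42.7%). Between the CFA groups the count was 0 after quantile normalization, after cyclic loess and with array SD in the model, 0 to 1 without each array of those groups and 3 without saline paw replicate 1. In the mean difference it was 0 with the array SD and 2 to 17 without each array. The F test called 1 member with a trended robust prior (5.66% of all genes) and 0 to 4 without each array. Between the saline groups leaving out each array gave 0 to 3. Socs3 between the CFA groups was −0.25 (quantile) and −0.25 (cyclic loess), against 0.47. The causes were not tested. With the replicate numbers as a block, 1 member was called between the CFA groups (5.74% of all genes) and 3 in the mean difference (13%). Il1rap had a limma adjusted p = 0.0518 in the mean difference, and 0 members were called elsewhere. Over all genes, counts moved from 407 between the saline groups to 199 (median centring), 7379 (array weights), 0 (only the arrays compared) and 51 to 3824 (leaving out arrays). From 1279 between the CFA groups they moved to 695 (quantile), 4054 (array weights), 444 (array SD), 3209 (only the arrays compared), 527 to 832 (leaving out their arrays) and 2588 (without saline paw replicate 1). From 2926 in the mean difference (2304 higher, 622 lower) they moved to 1693 (quantile; 1001 higher, 692 lower), 9139 (array weights), 866 (array SD) and 1782 to 6499 (leaving out arrays), and from 1148 in the F test to 692, 8523, 195 and 591 to 3886. Array weights called 125 genes, none of them a member, between CFA paw and saline paw. With 3 arrays a group, intervals reach a doubling for few members, and for dim members a change in RNA can leave the values unmoved.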

Other observations

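Many members had the same deposited value, to 5 decimals, on more than 1 array. This was so for 26 of the 49 measured members (53.1%, all genes 46.4%) and for 3 or more arrays in 14 (28.6%, all genes 25.5%). Cx3cr1 and Il17ra each had 1 value on 7 of the 15 arrays, 2.39 and 2.43, near the dim limit. Nfkbia, well above the limit, had the value 4.63 on 5 arrays from both skin and muscle groups. Tnf had the value 2.49 on 4 arrays, among them all 3 of saline muscle, where the SD of the deposited values is therefore 0 and does not measure the spread between the biological replicates. Genes dim in all 5 groups held such repeats more often (61.4%) than genes above the limit in all 5 (39.0%).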
